A study of Mus musculus with 556 samples.

Results

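Single fully grown mouse oocytes were profiled by DamID with Dam-lamin B1 or with Dam alone, 56 with the first construct and 43 with the second. These 99 oocytes were taken from the 556 samples of the series as the columns of the deposited table named for oocytes without a 20 ng or 50 ng label. Per the labels' protocols they were germinal vesicle oocytes, which are arrested in the first meiotic prophase, from females of 5 to 8 weeks that had received 10 IU of PMSG. The protocols name F1 (CBAxC57BL/6J) females, while the strain label of these samples is C57BL/6. Oocytes were collected 44 to 48 h after PMSG, and IBMX, which keeps the meiotic arrest, was in their medium. All 99 received mRNA for TIR1 (250 ng/µl) and membrane-EGFP (50 ng/µl) at 48 h. The first group also received AID-Dam-LaminB1 mRNA at 5 ng/µl and the second AID-Dam mRNA at 20 ng/µl, so the dose differed with the construct. AID is the auxin-inducible degron, through which TIR1 destroys the fusion while auxin is present. The oocytes were kept without auxin for 6 to 8 h. Lamin B1 here came from injected mRNA and not from its own gene. The profiles are of genomic DNA, so the cell type could not be checked against expressed markers. The labels name no female, pool or day, so each construct counts as 1 sample: no test was run between the constructs, and every SD and range below describes the spread over cells.

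Lamin B1 is a filament protein of the nuclear lamina, the layer under the inner nuclear membrane. In most cells the lamina holds large, gene-poor lamina-associated domains (LADs). Dam is a bacterial enzyme that methylates adenine in GATC. Fused to lamin B1 it marks DNA that comes near the lamina, and alone it marks accessible DNA. Setting the constructs side by side asks what a Dam-lamin B1 profile holds beyond accessibility. The fully grown oocyte holds duplicated, paired chromosomes in a large nucleus. The LADs used here are the deposited lists of the inner cell mass (ICM) and the trophectoderm (TE), the lineages of the blastocyst.

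Either construct can mark only GATC, so 3 promoters from bins described below are printed with that motif in capitals. Each covers 250 bases before and 50 after the annotated start, from RefSeq in GRCm38.p6, the mm10 assembly, and is written 5′ to 3′ on the gene's strand. Gab1 (chr8:80880470-80880769, minus strand) and Slc38a4 (chr15:97055907-97056206, minus strand) lie in bins that were low with Dam-lamin B1. Slitrk6 (chr14:110755100-110755399, minus strand) lies in a bin that was high over all oocytes. Over cells of at least 100000 reads its log2 ratio to Dam was 0.044.
Gab1: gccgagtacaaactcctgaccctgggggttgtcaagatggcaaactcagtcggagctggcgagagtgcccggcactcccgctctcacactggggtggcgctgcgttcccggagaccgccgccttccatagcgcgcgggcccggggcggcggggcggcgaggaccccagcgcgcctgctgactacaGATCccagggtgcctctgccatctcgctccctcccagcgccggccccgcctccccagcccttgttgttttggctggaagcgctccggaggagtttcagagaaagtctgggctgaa
Slc38a4: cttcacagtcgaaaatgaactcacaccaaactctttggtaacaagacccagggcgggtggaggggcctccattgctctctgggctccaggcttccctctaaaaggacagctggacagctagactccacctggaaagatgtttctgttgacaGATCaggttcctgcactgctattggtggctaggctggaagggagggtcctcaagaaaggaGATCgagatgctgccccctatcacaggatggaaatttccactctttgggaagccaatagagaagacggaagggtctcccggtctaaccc
Slitrk6: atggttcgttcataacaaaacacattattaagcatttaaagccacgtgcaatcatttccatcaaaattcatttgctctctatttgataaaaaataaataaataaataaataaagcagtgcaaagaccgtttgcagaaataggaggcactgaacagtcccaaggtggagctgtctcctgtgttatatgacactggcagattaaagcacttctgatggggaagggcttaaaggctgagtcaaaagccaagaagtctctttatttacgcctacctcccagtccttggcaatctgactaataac
GATC, whose reverse complement is the same, occurs 1 time in the promoter printed for Gab1, 2 times in that of Slc38a4 and 0 times in that of Slitrk6. Of all 32851 RefSeq promoters of this length 48% hold it. Gab1 has 2 promoters among them and Slc38a4 has 3, of which the first listed is printed. A promoter does not show how much GATC the rest of its bin holds, so these counts do not bear on the signal of the bins.

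The deposited values are ratios of observed to expected reads (OE) in bins of 100 kb, where 1 is the level expected for the bin. Reads per cell were recovered from the steps between values, with the largest step that made them whole, so all read numbers here are the lowest the values allow. They ran from 23561 to 177583 with Dam-lamin B1 (median 47941) and from 30993 to 1090940 with Dam (median 181938). A Dam-lamin B1 oocyte had 34.5% ± 14.7 of its bins at 0, and a Dam oocyte 4.9% ± 6.24. The oocyte columns stand in 2 separate stretches of the table, before and after those of other stages. The first stretch holds 45 Dam-lamin B1 and 28 Dam oocytes and the second 11 and 15, and the labels do not say what sets the stretches apart. The mean OE over all bins was lower in each of the 56 Dam-lamin B1 oocytes (0.805 to 0.955) than in any Dam oocyte (0.973 to 1.01). Scaling every cell to its own mean raised the median log2 ratio of the constructs over bins by 0.17, from -0.24 to -0.072.

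The LAD contrast is the log2 of the mean OE in bins covered by LADs of both lists over that in bins of neither. It was -0.17 ± 0.19 with Dam-lamin B1 (lowest -0.51, median -0.17, highest 0.25) against -0.45 ± 0.20 with Dam (-0.81, -0.49 and -0.13). The means differed by 0.28 and the ranges overlapped: 22 of 56 oocytes lay above the highest Dam oocyte and none below the lowest. Within the first stretch the means were -0.22 and -0.58, a difference of 0.36, and 38 of 45 oocytes lay above the highest Dam oocyte. Within the second they were 0.013 and -0.22, a difference of 0.23, with 10 of 11 above. The Dam oocytes themselves fell into 2 ranges that did not overlap, -0.81 to -0.39 in the first stretch and -0.36 to -0.13 in the second. The control thus differed between the stretches by 0.36, as much as the constructs differed within the first.

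**Figure D1:**
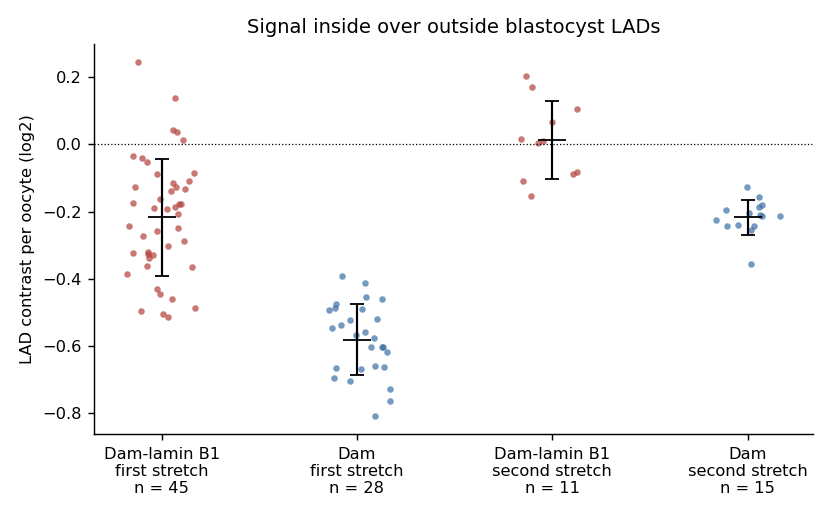
LAD contrast (log2, vertical axis) of each oocyte by construct and by stretch of the deposited table; points are oocytes, bars the mean and SD over oocytes. Dam-lamin B1 oocytes sit above most Dam oocytes of their own stretch, and all 15 Dam oocytes of the second stretch sit above all 28 of the first.

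As deposited, the difference lay in bins outside the LADs. In bins of both lists (12082 bins) the mean OE was 0.86 ± 0.0534 with the fusion against 0.885 ± 0.0549 with Dam, and 50 of 56 oocytes were within the range of the Dam oocytes. In bins of neither list (7688 bins) it was 0.97 ± 0.0906 against 1.21 ± 0.0919, and 46 of 56 oocytes were below every Dam oocyte. Within the stretches this held for 44 of 45 and 11 of 11. Since the mean OE was lower with the fusion, this depends on the scale. With each cell divided by its own mean, LAD bins were at 0.972 ± 0.051 against 0.89 ± 0.0516 (26 of 56 above every Dam oocyte), and bins of neither list at 1.1 ± 0.0875 against 1.22 ± 0.096 (19 below). On that scale the means differed on both sides. In zygotes given the same doses both sides moved as deposited. LAD bins were at 1.2 ± 0.0615 in 19 zygotes with the fusion and 0.823 ± 0.0447 in 46 with Dam, and bins outside at 0.774 ± 0.0993 and 1.37 ± 0.0739. The zygotes carry another strain label, a cross with CAST/EiJ males.

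Along LAD borders the signal of the fusion changed less than that of Dam in oocytes. From 1450 kb outside an ICM LAD to 1450 kb inside it, mean OE went from 0.968 ± 0.107 to 0.888 ± 0.0766 with Dam-lamin B1 and from 1.2 ± 0.0911 to 0.912 ± 0.058 with Dam. The line of the fusion was at 0.866 ± 0.0483 at 50 kb outside the border and 0.902 ± 0.0511 at 50 kb inside it, so most of its fall lay outside the LAD. Dam was at 1.03 ± 0.022 and 1.02 ± 0.0281 there and 0.936 ± 0.0521 at 450 kb inside, where the fusion was at 0.871 ± 0.0632. In zygotes the lines crossed between 150 kb (0.958 with the fusion and 0.962 with Dam) and 250 kb (0.994 and 0.932) inside the LAD, the fusion going from 0.767 to 1.23 and Dam from 1.32 to 0.846.

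**Figure D2:**
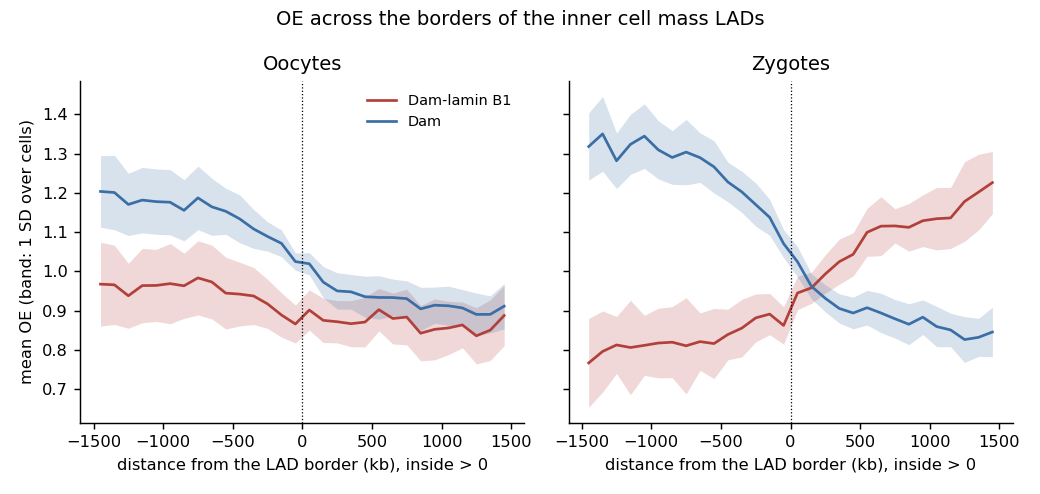
Mean OE (vertical axis) against distance from the border of ICM LADs in kb (horizontal axis, inside positive) in oocytes and zygotes; lines are means over cells and bands 1 SD over cells. In oocytes the Dam line falls from 1.2 to 0.912 and the Dam-lamin B1 line, at 0.968 and 0.888 at its ends, is at 0.866 and 0.902 on either side of the border, while in zygotes the Dam-lamin B1 line rises from 0.767 to 1.23.

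Gene density gave the same picture without the LAD lists. Over bins ordered by the density of genes around them, mean OE of the fusion went from 0.811 ± 0.0792 in the poorest of 5 classes (0 to 1 genes per Mb) to 1.02 ± 0.0875 in the richest (15 to 67), and that of Dam from 0.767 ± 0.0725 to 1.23 ± 0.104. Gene-rich bins were thus the more marked ones with either construct, by a smaller margin with the fusion.

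Whole chromosomes set Dam-lamin B1 oocytes apart from each other. The level of a chromosome is its share of a cell's reads over its share of expected reads, so 1 is an even share. Over the 19 autosomes of a cell the levels had an SD of 0.283 ± 0.103 with the fusion (lowest oocyte 0.108, median 0.271, highest 0.6) and 0.075 ± 0.0355 with Dam (0.0267, 0.0739 and 0.202). Of the 56 oocytes 43 were above every Dam oocyte. With every cell thinned to 20000 reads the values were 0.284 and 0.0814, and 44 of 56 lay above. Within the second stretch all 11 did, with 0.244 against 0.0493, and within the first 39 of 45, with 0.293 against 0.0986.

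A single chromosome often held a large share of an oocyte's reads. At least 1 chromosome reached a level of 1.5 in 44 of 56 Dam-lamin B1 oocytes (78.6%, exact binomial interval 65.6 to 88.4). It did so in 0 of 43 Dam oocytes, for which the exact binomial interval reaches 8.22%. Intervals cover counting error only, since reads amplified by PCR without molecular tags do not count molecules and oocytes may share a female. In 13 oocytes a chromosome reached 2, and in 21 oocytes 2 or more chromosomes reached 1.5, at most 4 in 1 oocyte. Dam-lamin B1 oocyte 20 had 20.8% of its 37058 reads on chromosome 1 (exact interval 20.4 to 21.2), where 8.1% were expected. Oocyte 54 had 10.9% of 122823 reads on chromosome 16, against 3.93% expected, and oocyte 8 had 11.4% of 23561 reads on chromosome 16, a level of 2.89. The lowest level was 0.511. Different oocytes had different chromosomes raised: 14 of the 19 reached 1.5 in at least 1 oocyte.

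Chromosome 14 was the one most often raised. Its level was 1.38 ± 0.511 with the fusion (lowest 0.542, median 1.32, highest 2.56) and 0.913 ± 0.0684 with Dam. It was at 1.5 or more in 23 of 56 oocytes and the highest chromosome of 18. The mean was 1.41 in the first stretch and 1.25 in the second. Chromosomes 5 (1.17 ± 0.312, 9 oocytes at 1.5 or more), 16 (1.12 ± 0.479, 7), 3 (1.05 ± 0.386, 6) and 1 (1.07 ± 0.292, 5) followed. Chromosome 5 was not at 1.5 in any of the 11 oocytes of the second stretch (mean 0.958). With Dam the gene-rich chromosomes 11 (1.13 ± 0.0754) and 19 (1.11 ± 0.0794) were highest, the top chromosome of 25 and 11 of 43 oocytes. With the fusion they were near an even share, at 1.02 ± 0.161 and 0.983 ± 0.203.

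**Figure D3:**
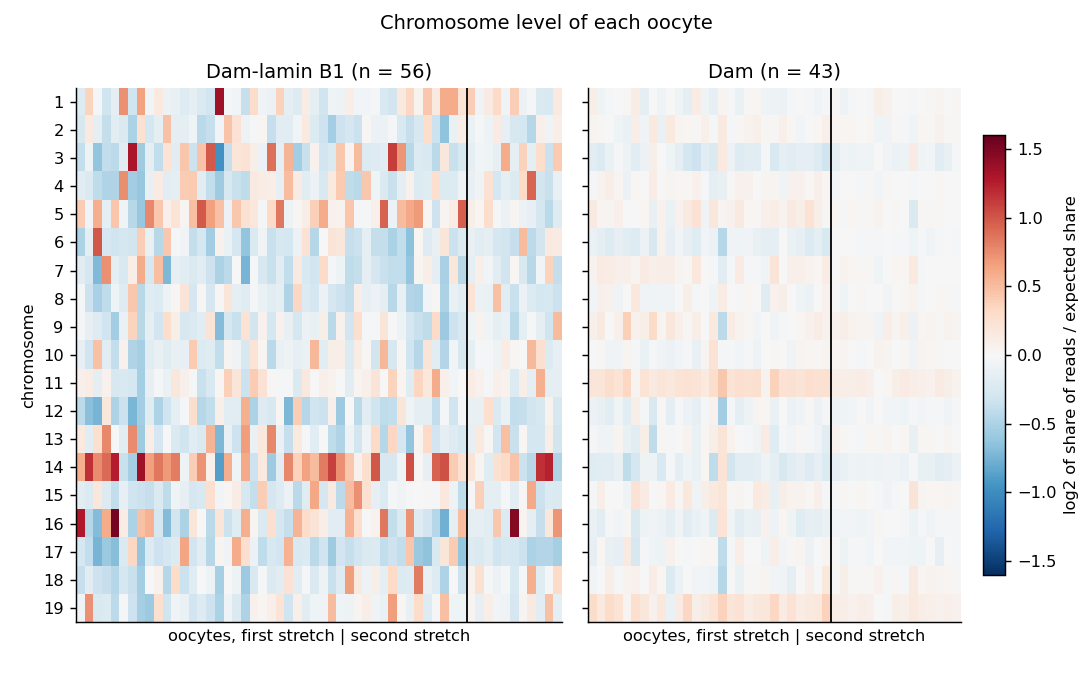
Level of each autosome (rows) in each oocyte (columns, by construct and stretch), as the log2 of its share of reads over the expected share. With Dam-lamin B1 single dark squares stand out on chromosomes 1, 3, 5, 14 and 16 in different oocytes, up to a level of 2.89, and with Dam no chromosome exceeds 1.35.

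Parts of a chromosome moved together to a varying degree. Across the 56 oocytes the proximal and the distal part of a chromosome had a Pearson's r of 0.0744 to 0.81 (median 0.405 over 19 chromosomes), highest on chromosome 16. With Dam, where no chromosome reached 1.5, that median was near it, at 0.383. Within the first stretch it was 0.447 with the fusion and 0.459 with Dam, and within the second 0.543 and 0.13. LAD bins and bins of neither list on the same chromosome had an r of -0.0167 to 0.778 (median 0.357), with 0.778 on chromosome 3 and 0.764 on chromosome 14. With Dam the median of the latter was -0.27 over all 43 oocytes, but 0.369 within the first stretch and 0.0829 within the second. With the fusion it was 0.469 and 0.63 within the stretches. These are descriptions over cells whose shares sum to the same total. At 20000 reads the mean spread of the other groups of the table ran from 0.0662 to 0.248. It was highest in 8-cell embryos with Dam (0.248 ± 0.0302, with a chromosome at 1.5 in 4 of 4 cells), and it was 0.211 ± 0.0669 in maternal pronuclei with Dam-lamin B1 (1 of 10) and 0.169 ± 0.0821 in cells of 2-cell embryos (9 of 47). It was 0.105 ± 0.0269 in zygotes with Dam-lamin B1, where 0 of 19 had a chromosome at 1.5. In Dam-lamin B1 oocytes labelled 20 ng it was 0.104 ± 0.0671 (2 of 17), and in those labelled 50 ng 0.0806 ± 0.0385 (1 of 23). Those values lie near the 0.0814 of the Dam oocytes (0 of 43) and below the 0.284 of the 56 Dam-lamin B1 oocytes described here (43 of 56). Depth moved with the spread, with an r with log reads of -0.31 over the 56 oocytes, and the difference between the constructs was 0.208 as deposited and 0.202 at equal reads.

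Regions of several Mb were sought as runs of at least 3 windows of 1 Mb in which the mean OE of the constructs differed at least 1.5-fold. Of 2375 windows 90 (3.79%) were higher with Dam-lamin B1, 45 of them on chromosome 14, and 312 (13.1%) were lower. The higher windows made 10 runs over 56 Mb on chromosomes 14, 5 and 16, and the lower windows 25 runs over 87 Mb. The longest higher run lay on chromosome 14 from 80000001 to 99000000 and held 9 protein-coding genes, among them the protocadherin genes Pcdh9, Pcdh17 and Pcdh20. Its mean OE per oocyte was 1.42 ± 0.965 with the fusion (lowest 0.222, median 1.27, highest 4.49) and 0.56 ± 0.114 with Dam (0.289, 0.539 and 0.835). In 35 of 56 oocytes it was above every Dam oocyte, and in the lowest it was under every Dam oocyte. The ratio of the means was 2.54, and 2.82 and 1.93 in the stretches.

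A second run on the same chromosome, from 106000001 to 118000000, held Slitrk1, Slitrk5 and Slitrk6, which encode neuronal transmembrane proteins, and the glypican genes Gpc5 and Gpc6. Its mean OE was 1.6 ± 0.937 and 0.622 ± 0.121, with 40 of 56 oocytes above every Dam oocyte. In zygotes both runs were also higher with Dam-lamin B1, at 1.5 against 0.53 and 1.54 against 0.582. The runs on chromosome 5 did not hold across the table: that of Tecrl and Epha5 (82000001 to 86000000) had a ratio of 1.77 in the first stretch and 1.07 in the second, and that of Stim2 (54000001 to 57000000) 2.1 and 0.946.

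The longest lower run lay on chromosome 7, from 135000001 to 141000000, and held 73 genes, among them Mki67, a marker of cycling cells, and the pluripotency gene Utf1. Its mean OE was 0.49 ± 0.143 with the fusion (0.274 to 0.857) and 0.969 ± 0.149 with Dam (0.684 to 1.4), a ratio of 0.506. Its values varied less between oocytes than those of the higher runs. A run on chromosome 8 from 89000001 to 94000000, with the developmental regulators Sall1, Irx3, Irx5 and Irx6, was at 0.381 ± 0.138 and 0.767 ± 0.147. In both of these lower runs 0 of 56 Dam-lamin B1 oocytes were above the highest Dam oocyte. In another lower run on chromosome 8 (74000001 to 79000000) 3 were, and the most in any lower run was 5, on chromosome 12. Higher and lower runs were picked by their means over these cells, so such counts follow in part from that choice.

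**Figure D4:**
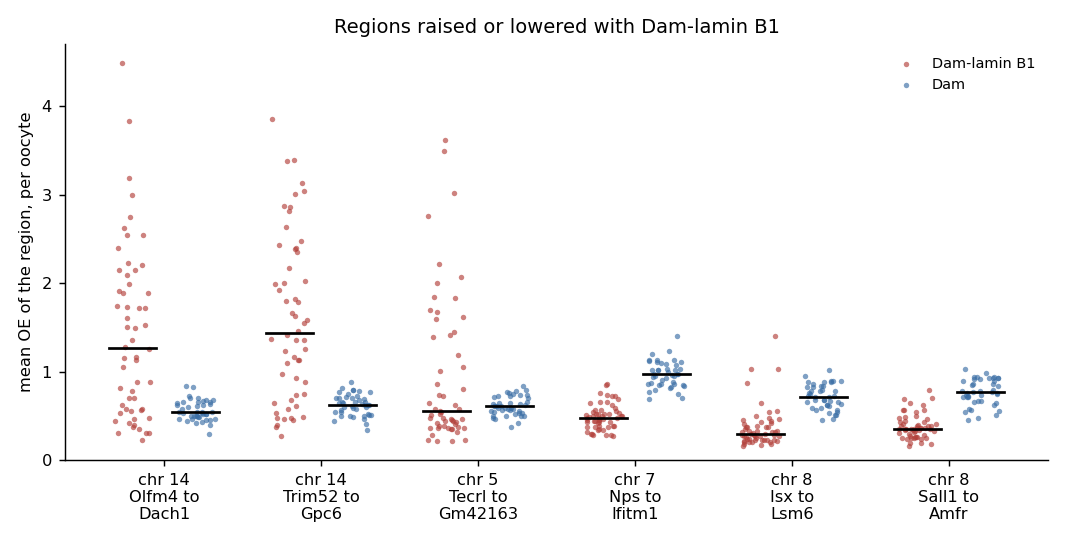
Mean OE (vertical axis) per oocyte in the 3 longest higher and the 3 longest lower runs of 1 Mb windows, named by chromosome and by their first and last gene; points are oocytes and lines medians. With Dam-lamin B1 the chromosome 14 runs reach 4.49 and 3.85, while the medians of the lower runs are 0.475, 0.298 and 0.351.

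Windows raised in single oocytes were counted at 20000 reads as those with an OE of at least 1.5. A Dam-lamin B1 oocyte had 12.3% of its windows raised on average and a Dam oocyte 13.7%. The most shared window was the same, at 3 Mb on chromosome 11, raised in 51 of 56 and 43 of 43 oocytes. On chromosome 14 the window at 80 Mb was raised in 36 and 4 oocytes, that at 106 Mb in 35 and 0 and that at 110 Mb in 33 and 0.

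Over single bins most differences were toward less signal with Dam-lamin B1. Of 23482 bins with at least 200 reads over both groups, 1189 (5.06%) had a mean OE at least 1.5-fold higher than with Dam and 5997 (25.5%) at least 1.5-fold lower. Higher bins made up 16.5% of those past this fold as deposited and 32.8% with each cell scaled to its mean (8.68% of all bins higher, 17.8% lower). Scaled within chromosomes, 6.35% were higher and 17.1% lower. As deposited, chromosome 14 held 438 of the higher bins (36.8%), which is 38.7% of its 1131 bins, and chromosome 19 held 0. Scaled within chromosomes, chromosome 14 had 248 higher and 248 lower bins. Of bins in both LAD lists 7.52% were higher and 21.5% lower, and of bins in neither 0.611% and 30.4%. In zygotes 30.7% of the same bins were higher and 38.8% lower, with 47.7% of LAD bins higher.

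The stretches gave like numbers of bins but shared only a part of them. In the first stretch 6.86% were higher and 27.1% lower, and in the second 6.61% and 25.4%. In both, 593 bins (2.53%) were higher, which is 36.8% of the higher bins of the first and 38.2% of the second. For lower bins this was 3345 (14.2%), which is 52.7% and 56.2%. Opposite directions were seen in 154 bins. The log2 ratios of the stretches, which share no cell, had an r of 0.556 across bins.

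Genes with an imprint that rests on H3K27me3 were the list with the lowest values. H3K27me3 is a repressive histone mark laid down over broad domains in the growing oocyte, and at these genes it silences the maternal allele in the early embryo without DNA methylation. Of 13 names 12 had a bin, on 10 chromosomes, and all 12 passed the read filter. With Dam-lamin B1 11 of 12 were at least 1.5-fold lower than with Dam (25.5% of all bins) and 0 of 12 higher, with a median log2 ratio of -1.28 against -0.24 over all bins. The median was -1.31 and -1.17 in the stretches, with 9 bins lower in both. It was -1.10 with each cell scaled to its mean and -1.23 within chromosomes. Over cells of at least 100000 reads, which are 9 Dam-lamin B1 and 35 Dam oocytes, it was -0.87, and -0.76 with these thinned to that number. With every cell thinned to 20000 reads it was -1.43. Averaged over the 12 bins, the OE of an oocyte was 0.337 ± 0.185 with the fusion (0, 0.31 and 0.873 as lowest, median and highest) and 0.779 ± 0.18 with Dam (0.409, 0.763 and 1.2). Of the 56 oocytes 40 were below every Dam oocyte, 34 of 45 and 9 of 11 within the stretches. As the mean OE over all bins was lower in every Dam-lamin B1 oocyte, such counts were not particular to this list. Over the other lists the count over all 56 ran from 4 (histone genes) to 33. The zinc finger (Zfp) genes, with a median log2 ratio of -0.23, had 33 of 56, and 33 of 45 and 7 of 11 within the stretches.

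The bin of Gab1, an adaptor of growth factor receptors (chromosome 8, 80800001 to 80900000), was lowest. It was at 0.139 ± 0.281 with the fusion, with 42 of 56 oocytes at 0, and 0.694 ± 0.417 with Dam, with 3 of 43 at 0, a log2 ratio of -2.32. Epas1, a hypoxia-inducible factor (-2.10), Slc38a4, an amino acid transporter (-1.73), Smoc1, a matrix protein (-1.70), and Sfmbt2, a Polycomb-group protein (-1.68), came next. Rbms1 (-1.38), Jade1 (-1.19), Otx2 (-1.09), Etv6 (-0.98), Edn3 (-0.65) and Sall3 (-0.63) were also past 1.5-fold, and Bbx was at -0.56. Of the 12 bins 7 were in neither LAD list. A shallow oocyte has few reads per bin, so a 0 in 1 oocyte says little and the group means carry the comparison.

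The low signal around these genes was wider than their bins. Averaged over the 12 places, OE with the fusion was 0.867 at 1000 kb before the bin, 0.528 at 300 kb before, 0.337 in it, 0.452 at 300 kb after and 1.02 at 1000 kb after. With Dam the values were 1.04, 0.837, 0.779, 0.826 and 1.04. Both constructs were thus low there, the fusion more so. In zygotes the bins were at 0.676 with the fusion and 1.14 with Dam, a median log2 ratio of -0.77. Most of these bins are in neither LAD list. Over all bins of neither list the zygote median was -0.92, and over bins of both lists it was 0.51. The zygote value at these genes was thus not below that of bins outside the LADs.

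**Figure D5:**
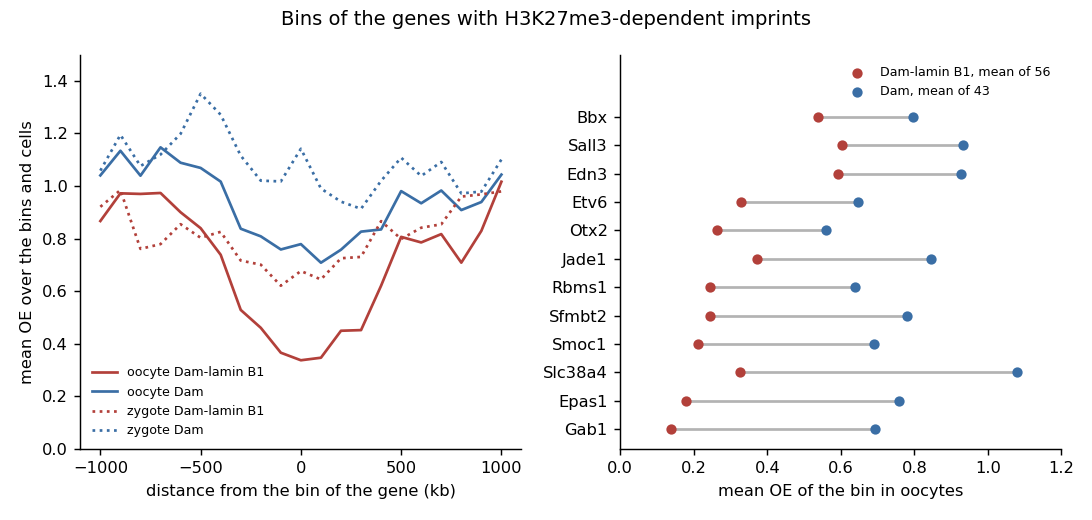
Left, mean OE over 12 places (10 or 11 from 500 kb after) against the distance in kb from the bin of the gene, for oocytes (solid) and zygotes (dotted). Right, mean OE of each of the 12 bins in oocytes. With Dam-lamin B1 the oocyte line drops to 0.337 at the gene and each gene's Dam-lamin B1 mean lies below its Dam mean.

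Imprints that rest on maternal DNA methylation had 7 of 16 bins at least 1.5-fold lower, 0 higher and a median of -0.52, where 25.5% of all bins were lower. With each cell scaled to its mean 4 of 16 were lower, and within chromosomes the median was -0.15. Slc38a4 is on both lists. Of the 26 lists 5 had a median above 0 as deposited and 12 with each cell scaled to its mean, so the sign of a small median depends on that choice. Genes of genome activation at the 2-cell stage were at 0.40 (0.43 and 0.37 in the stretches, 0.58 scaled), with 3 of 16 bins higher (5.06% of all bins) and 0 lower. Thinned to 20000 reads the median was 0.13. The bin of Tcstv1, a gene of that stage, was at 3.81 ± 2.67 with the fusion and 1.77 ± 0.775 with Dam (1.11). The Pramel and Oog genes, clusters expressed in germ cells and early embryos, were at 0.34, with 7 of 23 bins higher and 0 lower, and the Pramel48 bin at 2.92 ± 2.71 and 1.33 ± 0.576 (1.14). By the mean of log2(OE + 0.1), which weighs bins at 0, the medians of both lists were below 0, at -0.38 and -0.31. Both lists hold near-identical gene copies, among which the mapping could have split the reads.

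Gene families with medians above 0 in zygotes had, as deposited, medians near or below 0 in oocytes, where 5.06% of all bins were higher and 25.5% lower. Olfactory receptors, in 335 bins that passed, had 16 higher (Olfr727 to Olfr730 share the highest, at 1.43) and 88 lower, with a median of -0.22 in oocytes and 1.03 in zygotes. Those counts are close to the shares over all bins. Vomeronasal receptors (156 bins, 7 higher, 31 lower) were at -0.067 and 0.64, the placental prolactin family (14 bins, 0 higher, 9 lower) at -0.66 and 1.46, and long neuronal genes (18 bins, 1 higher, 3 lower) at 0.017 and 1.55. With each cell scaled to its mean the counts higher and lower were 29 and 63 for olfactory receptors, 17 and 26 for vomeronasal receptors, 0 and 4 for the prolactin family and 3 and 2 for long neuronal genes. In the same order the scaled medians were -0.042, 0.10, -0.50 and 0.18. Ribosomal protein genes, in gene-rich places, were at -0.24 with 0 higher and 14 of 83 lower, and at -1.02 in zygotes. Whether these medians differ between stages was not tested.

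Genes of the oocyte itself were near the level of all bins. The 11 bins of oocyte growth and zona pellucida genes had a median of -0.23, with 0 higher and 1 lower. Maternal-effect genes were at -0.15 (3 of 16 lower) and genes of meiosis and arrest at -0.29 (3 of 20 lower), both with 0 higher. Gdf9, which the oocyte secretes to act on follicle cells, had its bin at 1.11 ± 0.83 and 1.37 ± 0.474. That of Zp3, a zona protein that binds sperm, was at 1.97 ± 1.16 and 1.73 ± 0.584. Of 31 marker genes on autosomes 2 had a bin at least 1.5-fold higher and 3 lower, against 5.06% and 25.5% of all bins. The higher ones were Alb, serum albumin of the liver (0.94), and Pcdh9 (0.91, but 1.90 and -0.34 in the stretches). The lower ones were the olfactory receptor Olfr1145 (-0.78), Lmnb1 itself (-0.77) and Dppa3, which protects maternal methylation (-0.65). The Dppa3 ratio was above 0 over cells of at least 100000 reads (0.12).

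Among bins with a gene, 9 of the 10 highest ratios were on chromosome 14. The Pcdh20 bin (88400001 to 88500000) was at 1.81 ± 2.23 with the fusion (lowest 0, median 0.858, highest 8.21) and 0.451 ± 0.256 with Dam (0, 0.417 and 0.976). It held 205 reads over all Dam-lamin B1 oocytes (exact Poisson interval 178 to 235) and 205 over the deeper Dam oocytes, and the log2 ratio of 2.01 was 2.37 and 0.48 in the stretches. The bin of Spertl (95800001 to 95900000) was at 2.08 ± 1.79 and 0.557 ± 0.327, with an OE of at least 1 in 38 of 56 and 3 of 43 oocytes, and ratios of 1.94 and 1.62. Fgf14, a modulator of neuronal sodium channels (1.88), Gpc6 (1.52), Trim52 (1.5), Gm17175 (1.49), Slitrk6 (1.43) and the Olfr725 bin (1.42) followed. The Slitrk6 ratio was 0.044 over cells of at least 100000 reads and -0.47 with these thinned to that number. Scaled within chromosomes, the 9 bins of chromosome 14, Olfr727 among them, were at 0.74 to 1.40. The exception, the Gm40469 bin on chromosome 8 (1.33), had a high mean OE with both constructs (5.78 and 2.3).

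The 10 lowest were spread over 6 chromosomes, 4 of them on chromosome 11. The bin of Kif2b, a kinesin (chromosome 11, 91500001 to 91600000), held 19 reads over all Dam-lamin B1 oocytes (exact Poisson interval 11.4 to 29.7) and 290 over the Dam oocytes, with a mean OE of 0.0652 and 0.616 and a log2 ratio of -3.24. Those of Serpina5 (-3.09), Shisa6 (-2.83), Mroh4 and Arc (-2.72), Fas (-2.66), Olfr1491 (-2.66), Gramd1b (-2.64), Gm11595 and the keratin-associated Krtap4-8 (-2.62), Pcsk2 (-2.53) and Olfr395 (-2.47) followed. All 10 were at -1.19 or below in each stretch and at -2.10 or below scaled within chromosomes. They were picked by their ratio over the same cells, so these values follow in part from that choice. The 10 bins held 12 (Shisa6) to 32 (Olfr395) reads over all Dam-lamin B1 oocytes. Over the Dam oocytes they held 207 (Pcsk2) to 431 (Mroh4), so they passed the read filter mainly through the Dam reads. In zygotes the log2 ratios of these bins ranged from -1.26 (Mroh4) to 2.05 (Olfr1491), with Kif2b at 1.55.

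Single Dam-lamin B1 oocytes resembled each other less than Dam oocytes did over large regions. With every cell at 20000 reads, the r between 2 oocytes over 1 Mb windows averaged 0.17 ± 0.097 over pairs with the fusion and 0.288 ± 0.0936 with Dam. Within the first stretch it was 0.184 and 0.383, and within the second 0.114 and 0.172. Scaled within chromosomes the values were 0.212 and 0.287. Over 100 kb bins at equal reads the order turned, with 0.0951 and 0.0743 over all pairs, but in the first stretch it did not (0.104 and 0.106). Signal of nearby bins was more alike within a Dam-lamin B1 oocyte. Between neighbouring bins r was 0.23 ± 0.0761 against 0.0722 ± 0.036, with 48 of 56 above every Dam oocyte. Scaled within chromosomes it was 0.16 and 0.068, with 47 of 56 above. Between bins 1 Mb apart r was 0.114 ± 0.043 against 0.034 ± 0.0193, with 46 of 56 above every Dam oocyte. Scaled within chromosomes that r was 0.0575 and 0.0297, with 16 of 56 above.

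In the mean profiles the fusion in oocytes was nearer to Dam than to the fusion in zygotes. Across bins, the r between the mean Dam-lamin B1 and Dam profiles of oocytes was 0.67 in the first stretch and 0.483 in the second. The mean oocyte profile of the fusion had an r of 0.17 with that of zygotes, whereas the Dam profiles of both stages had 0.805. The log2 ratios of the constructs in oocytes and zygotes had an r of 0.285. These are descriptions over 23481 to 23482 bins of the same genome, which are not independent.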

How the data were processed

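For 512 cells the authors deposited ratios of observed to expected reads (OE) in 24639 autosomal bins of 100 kb. For the expected reads, the way they were set was not given in the sources used here. Cutadapt, BWA 0.7.12 and build mm10 are named by the submitters' processing notes. The LAD lists give positions alone. From these files values were computed in Python 3.11.15 (numpy 2.4.6, pandas 2.3.3, scipy 1.17.1, matplotlib 3.10.9). Bins without a value (617) were left out. Within a bin OE values are multiples of what 1 read is worth, and with a tolerance of 0.001 reads 100% of non-zero values in 23857 bins came out whole. A step that divides it evenly would fit as well, so depths and read numbers are the lowest the values allow; with a finer step they would be a multiple of those given and the counting intervals narrower. The recovery and the fold threshold of 1.5 were tried on simulated oocytes, with values built as the recovery assumes. Their spread between cells was drawn bin by bin, so the simulation does not cover spread shared along whole chromosomes. LAD bins were covered at least 50%. Genes were placed by their midpoints in RefSeq's GRCm38.p6 annotation. The bins named were the 10 highest and 10 lowest ratios among bins with at least 200 reads and a protein-coding gene, those of the marker genes, and the extremes of each gene list. A window of 1 Mb needed 5 bins. Oocytes were grouped by their titles. Pools of cells were not used, and oocytes labelled 20 ng or 50 ng were left out of the comparison. Alternatives covered depth, scaling, LAD lists, averaging over cells, the read filter, window size and the stretches of the table. The members and lists were chosen with earlier results of these data known.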

Additional observations from a re-analysis of the deposited data

How the results depend on the processing

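The LAD difference between the constructs stayed above 0 under each alternative run, from 0.18 (scaled to chromosome means) to 0.43 (by the share of bins at an OE of 1 or more, which put Dam at -0.74). In the second stretch the mean contrast with the fusion was above 0 (0.013), that of Dam -0.22, the correlation of the profiles 0.483 and the share of Dam-lamin B1 oocytes with a raised chromosome 54.5%. The zygote difference of 1.38 was 1.07 with the ICM list alone. Bins at least 1.5-fold higher numbered 1839 when thinned to 100000 reads, 1838 when thinned to 20000, 2039 when scaled to the autosomal mean and 150 by the mean of log2(OE + 0.1), which gave 16559 lower bins. That mean gives weight to bins at 0, which were more common in the shallower group. Between Dam oocytes the mean r, 0.329 as deposited, was 0.223 at 100000 reads, 0.0743 at 20000 and 0.646 over 1 Mb windows. Of 49 named bins past 1.5-fold, 5 turned: Slitrk6 (-0.47) and Dppa3 (0.14) at 100000 reads, Dppa3 also with shallower cells left out (0.12), Pcdh9 by the log mean (-0.072) and in the second stretch (-0.34), and there Klf4 (0.0076) and Ehmt1 (0.036). Still past 1.5-fold in the same direction were 35 of 49 with cells under 100000 reads left out, 36 thinned to 100000 reads, 36 in the second stretch, 40 by the log mean and 41 scaled to chromosome means. Of 4 lists with a median past 1.5-fold, 1, that of H3K27me3 imprints, stayed past it with shallower cells left out, scaled to chromosome means and in the second stretch, and 2 did at 100000 reads, at 20000 and scaled to the autosomal mean. The cause of these changes was not tested. Alternatives at 20000 reads, by scaling and by stretch were chosen after seeing the data. Thinning to 100000 reads kept 9 of 56 Dam-lamin B1 and 35 of 43 Dam oocytes. Every LAD bin was covered in full, so the stricter coverage changed nothing. No paired analysis was possible because the result comes from no test and the numbers in the titles only name cells. At these depths a bin at 0 in 1 oocyte says little. Within the 99 oocytes compared, the constructs differ in depth and in dose, and what belongs to these and what to the construct cannot be told apart. Dam-lamin B1 oocytes labelled 20 ng and 50 ng had a chromosome spread of 0.104 and 0.0806 at 20000 reads. With Dam-lamin B1 at 5 ng/µl it was 0.284 and with Dam 0.0814. Whether dose accounts for this was not tested.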
